A study of Mus musculus with 14 samples.

Results

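Mfn1, Mfn2, Dnm1l, Fis1, Mff, Mief1, Mief2, Immt, Chchd3 and Gdap1 encode proteins that fuse mitochondria, divide them or fold their inner membrane. The 10 genes were chosen by name for these roles, out of 53700 genes in the deposited tables, and they are described here in adult mouse neural stem and progenitor cells. RNA was sequenced from cultures of C57BL/6 cells in 4 groups. Quiescent cells had been given BMP4 (n = 4), and proliferating cells had been kept in FGF and EGF (n = 4). Yme1l KO cells had received an adeno-associated virus carrying Cre and GFP (n = 3), and their GFP control cells an adeno-associated virus carrying GFP (n = 3), with both groups kept in FGF and EGF. The labels call the KO cells wild-type as well, name no floxed allele and do not state whether replicates were separate animals or cultures. The p-values below therefore measure the spread between these libraries, which may be technical.

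Mitochondria form a network whose shape is set by the balance of fusion and division. The mitofusins MFN1 and MFN2 are GTPases of the outer membrane that tether and fuse neighbouring organelles, and the GTPase DNM1L (also called DRP1) is drawn from the cytosol by receptors such as MFF, MIEF1 and MIEF2 to constrict and divide them. The MICOS complex, with IMMT (mitofilin) and CHCHD3 among its subunits, holds the junctions at which cristae meet the inner boundary membrane. In neural stem cells the shape of this network is known to differ between cell states, and YME1L is an ATP-dependent protease of the inner membrane.

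The promoter sequences of the mitofusin genes, which rose in both comparisons, and of Mief1, which had fewer counts in both, are shown for the 250 bases before the annotated start. They come from RefSeq on build GRCm38.p6, which is not the build of the deposited tables (GRCm39), and run 5′ to 3′ on the gene's strand. The windows lie at chr3:32529232-32529481 (plus strand) for Mfn1, chr4:147904910-147905159 (minus strand, the first of 3 annotated windows) for Mfn2 and chr15:80233830-80234079 (plus strand) for Mief1. Capitals mark matches to the SP/KLF box GGGCGG on either strand.
Mfn1 promoter: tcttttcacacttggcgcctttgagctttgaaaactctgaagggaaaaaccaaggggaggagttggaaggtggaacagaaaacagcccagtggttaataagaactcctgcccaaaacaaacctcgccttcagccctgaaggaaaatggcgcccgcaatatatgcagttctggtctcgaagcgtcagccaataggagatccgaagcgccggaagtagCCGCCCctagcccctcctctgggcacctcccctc
Mfn2 promoter: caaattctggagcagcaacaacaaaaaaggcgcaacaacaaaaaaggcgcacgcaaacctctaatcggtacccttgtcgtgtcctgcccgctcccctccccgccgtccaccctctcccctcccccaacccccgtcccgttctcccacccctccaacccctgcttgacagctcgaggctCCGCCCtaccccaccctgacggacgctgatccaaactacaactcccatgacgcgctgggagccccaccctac
Mief1 promoter: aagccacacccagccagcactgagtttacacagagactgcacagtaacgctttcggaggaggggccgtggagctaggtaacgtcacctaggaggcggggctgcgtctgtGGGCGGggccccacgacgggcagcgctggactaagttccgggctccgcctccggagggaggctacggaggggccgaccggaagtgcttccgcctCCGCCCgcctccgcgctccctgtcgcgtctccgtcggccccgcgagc
The Mfn1 and Mfn2 windows each hold 1 match to this box and the Mief1 window holds 2, while the other 2 Mfn2 windows, which start further downstream, hold 0. The box was found in the first window of 7 of the 9 genes that RefSeq lists here and in 32.9% of 27025 RefSeq promoters of the same length, and the genes without it were Immt and Chchd3. The NRF1 motif, GCGCA and GCGC with any base between them (3.86% of promoters), and the ERR motif AAGGTCA (4.05%) were in none of the 9 first windows, and the E-box CACGTG (6.05%) was in that of Mief2, all searched on both strands. In the 3 sequences shown, the capitals overlap no match to another of these motifs. These matches describe letters only, and no difference from the share over RefSeq promoters was tested.

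Library totals were 6475092 to 8797741 estimated counts in quiescent, 8331995 to 8992697 in proliferating, 9226070 to 10320727 in GFP control and 9053122 to 9490735 in Yme1l KO cells. Yme1l1, the gene of the protease, had 135, 124 and 121 CPM (counts scaled by the normalised library size) in the GFP control libraries and 25.7, 25.6 and 22.9 CPM in the KO libraries. It was thus 5.13-fold lower in the libraries labelled KO (edgeR, adjusted p = 5.89e-11). Quiescent replicate 2 stood apart: its deviations from its group's mean ran against the GC content of genes (r = -0.555 across genes, a description). Several results are also given without it. Of the stem and progenitor markers, Sox2 lay between 84.3 and 136 CPM in every library, while Prom1 was at most 0.325 CPM. Others differed widely between groups. Gfap had 291 to 323 CPM in quiescent, 38.8 to 55.6 in proliferating, 3.51 to 5.10 in KO and 2.75 to 4.39 in GFP control cells. Nes had 135 to 208, 331 to 431, 1481 to 1679 and 1758 to 1833 CPM in that order. Of the 7 stem and progenitor markers tested, 4 rose and 2 fell in quiescent cells, where 65.4% of all genes were called. In KO cells 4 of them fell and 0 rose, where 51.6% of all genes were called. Markers of neurons (7 genes) summed to 52.7 to 107 CPM in quiescent, 50.5 to 76.0 in proliferating, 1212.5 to 1268 in KO and 1167 to 1261.5 in GFP control cells, with Map2 making up most of the sum and Stmn2 at 0 in all 14 libraries. The microglia marker Cx3cr1 was at 0 in every library. Markers of oligodendrocytes (6 genes, mostly Cnp) summed to 208 to 229, 223 to 244, 103 to 126 and 97.6 to 102 CPM in the same order. Those of endothelial cells and pericytes (6 genes) summed to 9.44 to 13.5, 2.21 to 3.33, 10.2 to 12.3 and 6.54 to 6.72 CPM. The part of these markers in the results below was not tested, and in bulk RNA fewer cells of a type and less RNA per cell cannot be told apart.

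Of the 10 genes, 9 passed the filter on low counts in both comparisons, and Gdap1 did not. In quiescent against proliferating cells 4 of the 9 were higher (Mfn1, Mfn2, Fis1 and Mff), 2 were lower (Mief1 and Immt) and 3 did not pass the test (adjusted p under 0.05, Benjamini-Hochberg over all genes tested). Across all 12245 genes tested, 65.4% were called, 29.9% as higher and 35.5% as lower, so the share of these genes called (66.7%) is near the background. Their median log2 fold change was 0.23, beside -0.01 over all genes tested. Scaling by library size alone moved that all-gene median to -0.15 and the calls from 3664 higher and 4346 lower to 2823 and 5219. In Yme1l KO against GFP control cells 4 of the 9 were higher (Mfn1, Mfn2, Mff and Mief2), 3 were lower in counts (Mief1, Immt and Chchd3, with Mief1 flat or slightly above the control in values scaled from TPM) and 2 were not called. Here 51.6% of 12625 genes were called, 25.4% as higher and 26.2% as lower, and the median of these genes was 0.16 beside 0.00 over all genes. Under adjusted p below 0.01 none of the 3 falls in KO cells was called, and DESeq2 called 0 of them as well.

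**Figure D1:**
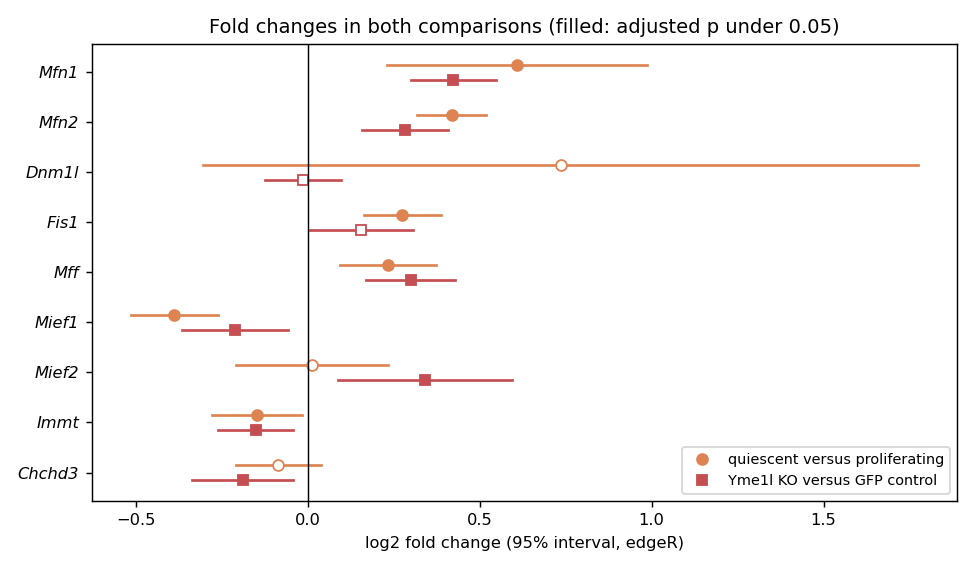
Log2 fold change (horizontal axis, with its 95% interval from edgeR) of the 9 tested genes in quiescent against proliferating cells (circles, n = 4 and 4) and in Yme1l KO against GFP control cells (squares, n = 3 and 3). Filled symbols are genes with an adjusted p under 0.05. Mfn1, Mfn2 and Mff lie to the right of 0 in both comparisons, Immt lies to the left in both, Mief1 lies to the left in both in counts but at 0.01 in the KO with limma on TPM, and Dnm1l has the widest interval in quiescent cells.

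The comparison of quiescent with proliferating cells and that of KO with control cells share no library. In both, Mfn1, Mfn2 and Mff were higher (3 genes) and Mief1 and Immt were lower in counts (2 genes), of which Mief1 did not keep that direction in KO values scaled from TPM. The Mff call in quiescent cells was lost under 5 of 19 alternative settings. The Immt call was lost under 13 of 19 in quiescent and 9 of 17 in KO cells. Of 11477 genes tested in both comparisons, 14.8% were called higher in both and 18.4% lower in both, 33.3% in all, and nothing particular to these genes was tested. Dnm1l was called in neither, Fis1 in quiescent cells alone, and Mief2 and Chchd3 in KO cells alone. Whether these differ between the comparisons was not tested.

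Mfn1 (ENSMUSG00000027668, GRCm39 chromosome 3, 32583614 to 32633388, plus strand) encodes the mitofusin that is the stronger tether of opposing outer membranes. It had 28.9, 50.9, 35.1 and 33.6 CPM in quiescent replicates 1 to 4 and 27.0, 27.0, 21.5 and 22.6 CPM in proliferating replicates 1, 2, 4 and 5. Every quiescent library lay above every proliferating library, by little for quiescent replicate 1 and by most for replicate 2. The means were 37.2 ± 9.55 and 24.5 ± 2.91 CPM (SD, n = 4 and 4), a 1.53-fold rise (log2 fold change 0.61, SE 0.17, edgeR adjusted p = 0.00946). Without quiescent replicate 2 the log2 fold change was 0.49. With the GC trend removed it was 0.40 (edgeR adjusted p = 0.00327), and 0.36 with the replicate block as well (edgeR adjusted p = 0.0256). In KO cells Mfn1 had 169, 166 and 191 CPM, and in GFP control cells 133, 128 and 131 CPM. The KO libraries all lay above the control libraries, and the rise was 1.34-fold (log2 fold change 0.42, SE 0.06, edgeR adjusted p = 3.68e-05).

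Mfn2 (ENSMUSG00000029020, GRCm39 chromosome 4, 147958056 to 147989161, minus strand) encodes the second mitofusin, which also sits at contacts between mitochondria and the endoplasmic reticulum. Its level was 208, 197, 197 and 218 CPM in quiescent libraries and 156, 149.8, 154 and 154 CPM in proliferating libraries. The groups did not overlap and the spread within each was small, at 205 ± 10.1 and 153 ± 2.62 CPM (SD, n = 4 and 4). This was a 1.34-fold rise (log2 fold change 0.42, SE 0.05, edgeR adjusted p = 9.62e-07), and among the 9 tested genes it had the smallest adjusted p. Leaving out quiescent replicate 2 gave a log2 fold change of 0.52. KO libraries had 119, 118 and 134 CPM of Mfn2, and control libraries 103, 102 and 99.3 CPM. All KO libraries were higher, 1.22-fold on average (log2 fold change 0.28, SE 0.06, edgeR adjusted p = 0.00103).

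The rise of both mitofusins was called under each of 19 alternatives in quiescent cells (log2 fold change 0.36 to 0.76 for Mfn1 and 0.28 to 0.60 for Mfn2) and each of 17 in KO cells (0.36 to 0.49 and 0.22 to 0.32). In the authors' deposited table of proliferating over quiescent cells Mfn1 stood at -0.61 (adjusted p = 0.00141) and Mfn2 at -0.47 (adjusted p = 7.34e-14) on the log2 scale. In the authors' deposited table of KO over control cells Mfn1 stood at 0.34 (adjusted p = 0.0054) and Mfn2 at 0.30 (adjusted p = 0.00133). Within a library, Mfn1 made up 18.5 ± 4.34% of the mitofusin TPM (length-normalised abundance) in quiescent and 16.8 ± 2.47% in proliferating cells (SD, n = 4 and 4; exact two-sided permutation p = 0.543, adjusted 0.724). In KO cells the share was 65.8 ± 3.75% and in control cells 65.1 ± 1.75% (SD, n = 3 and 3; exact permutation p = 0.9). With 4 shares adjusted together, no adjusted p could go below 0.0571, so these tests could not have called a change in the ratio. The quiescent libraries lay between 14.2% and 24.3% and the proliferating libraries between 14.4% and 19.9%, and the difference of 1.67 percentage points turned to -0.262 without quiescent replicate 2. In KO cells the difference of 0.649 turned to -0.31 without GFP control replicate 2 and -1.03 without KO replicate 1, and was 1.4 without GFP control replicate 3, 2.68 without KO replicate 2 and 0.299 without KO replicate 3.

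**Figure D2:**
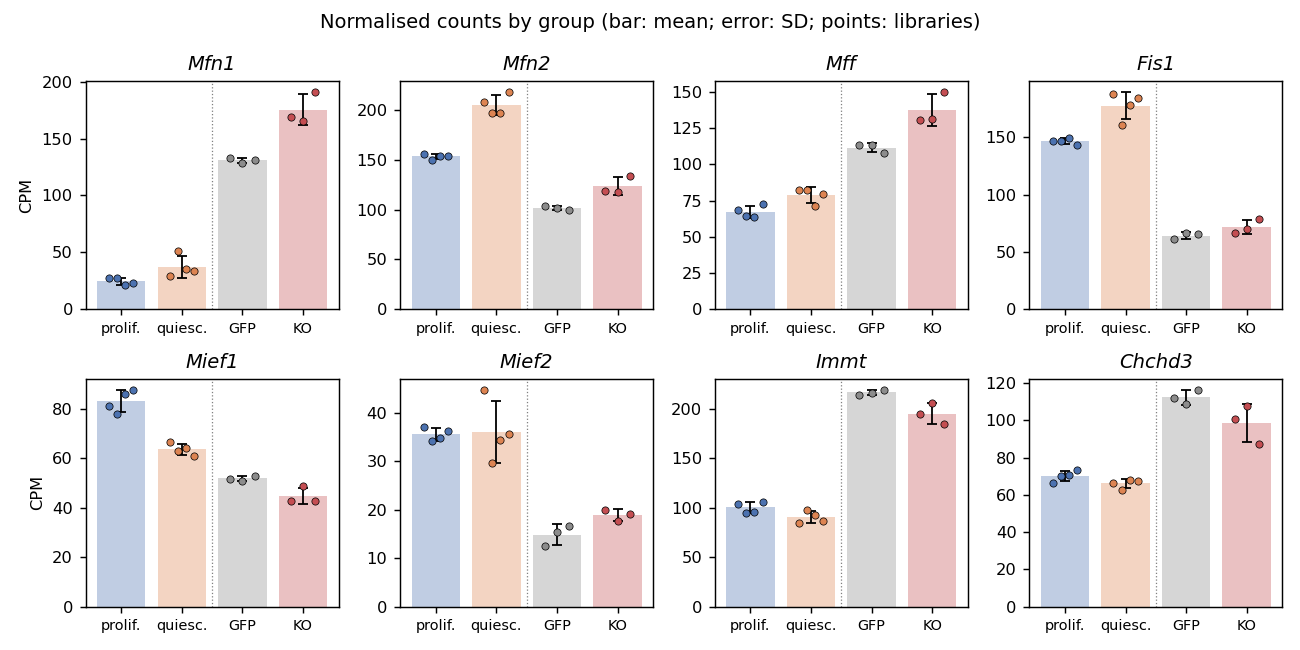
CPM (vertical axes, each from 0) of 8 of the genes in proliferating and quiescent cells (n = 4 and 4) and in GFP control and Yme1l KO cells (n = 3 and 3). Bars are means, error bars are SD and points are libraries, and the dotted line separates tables that were quantified separately. The quiescent bars of Mfn1, Mfn2 and Fis1 and the KO bars of Mfn1, Mfn2 and Mff stand above their partners with no overlap of points, and the Mief1 points of quiescent cells lie between 61.0 and 66.6 CPM, below the proliferating points at 78.1 to 87.8 CPM.

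Dnm1l (ENSMUSG00000022789, GRCm39 chromosome 16, 16130094 to 16176823, minus strand), the gene of the division GTPase, had few counts in the quiescent and proliferating libraries. It had 45, 135, 27 and 53 counts in quiescent and 69, 25, 68 and 33 counts in proliferating libraries, or 7.27, 15.8, 4.39 and 7.40 CPM and 7.28, 2.76, 7.38 and 3.79 CPM. The groups overlapped and quiescent replicate 2 was the highest of the 8. The log2 fold change was 0.74 with a 95% interval of -0.30 to 1.77 (edgeR adjusted p = 0.185), and 0.35 without that library. The interval holds both falls and rises, and its SE was 0.45. In the other table it had 162, 154 and 161 CPM in KO and 159, 168 and 154 CPM in control libraries, on 1421 to 1613 counts each. These groups overlapped, and the interval of the difference was narrow, at -0.12 to 0.10 on the log2 scale around -0.01 (edgeR adjusted p = 0.846).

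Fis1 (ENSMUSG00000019054, GRCm39 chromosome 5, 136982129 to 136995088, plus strand) encodes a small tail-anchored protein of the outer membrane, the receptor of the division machinery in yeast. It had 188, 161, 178 and 184 CPM in quiescent and 147, 147, 149 and 143 CPM in proliferating libraries, with no overlap. The rise was 1.21-fold (log2 fold change 0.28, SE 0.05, edgeR adjusted p = 0.000244), and it was called under all 19 alternatives (0.14 to 0.41). It was 0.41 on the log2 scale without quiescent replicate 2. In KO libraries Fis1 had 66.7, 69.7 and 78.4 CPM, and in control libraries 61.0, 66.3 and 65.3 CPM. The KO values all lay above the control values, by 0.16 on the log2 scale (95% interval 0.01 to 0.31), which did not pass the adjustment (edgeR adjusted p = 0.0756). Without KO replicate 1 it did (0.20, adjusted p = 0.0437), and over the 17 alternatives the adjusted p ran from 0.0437 to 0.26.

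Mff (ENSMUSG00000026150, GRCm39 chromosome 1, 82702611 to 82730115, plus strand) encodes a main DNM1L receptor of mammalian mitochondria. Quiescent libraries had 82.1, 82.6, 71.1 and 79.4 CPM and proliferating libraries 68.3, 64.3, 63.4 and 72.4 CPM. The groups overlapped in 1 library of each, quiescent replicate 3 lying just below proliferating replicate 5. The log2 fold change was 0.23 (SE 0.07, edgeR adjusted p = 0.00549), a 1.18-fold rise in counts. It was lost with library size alone (0.10, adjusted p = 0.215), in limma on log2(TPM + 1) (0.02, adjusted p = 0.824), in counts scaled from TPM (0.05, adjusted p = 0.638) and after removal of the GC trend (0.05, adjusted p = 0.72). The authors' deposited table of proliferating over quiescent cells holds -0.07 (adjusted p = 0.622). In KO cells Mff had 131, 131 and 150.2 CPM against 113, 114 and 108 CPM in control cells. Here the groups did not overlap, the rise was 1.23-fold (log2 fold change 0.30, SE 0.06, edgeR adjusted p = 0.000849), and it was called under all 17 alternatives.

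For Mff, a short transcript was singled out after its values were seen. Its part in the difference between counts and TPM was not tested. Mff-210, a processed transcript of 586 bases, took 18.7%, 22.1%, 11.1% and 13.5% of the gene's TPM in the proliferating libraries, 0 in quiescent replicates 1 to 3 and 10.3% in quiescent replicate 4. It rested on 21.6 to 56.8 estimated counts where it was above 0, or 3.79% to 9.76% of the gene's counts. Leaving this transcript out, Mff had 101, 105, 97.9 and 109 TPM in quiescent and 86.8, 90.4, 89.5 and 81.8 TPM in proliferating libraries. Without it the groups did not overlap, while with it the proliferating libraries (94.5 to 116 TPM) lay within the range of the quiescent ones (97.9 to 121 TPM) but for 1. Leaving out a transcript already seen to be higher in proliferating libraries widens the gap by construction. These values are therefore no test of the rise.

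Mief1 (ENSMUSG00000022412, GRCm39 chromosome 15, 80118219 to 80137572, plus strand) encodes an outer membrane adaptor that binds DNM1L. It had 66.6, 62.9, 64.1 and 61.0 CPM in quiescent and 81.2, 78.1, 85.9 and 87.8 CPM in proliferating libraries. All quiescent libraries lay lower, by 1.31-fold (log2 fold change -0.39, SE 0.06, edgeR adjusted p = 2.88e-05), and the fall was called under all 19 alternatives (-0.53 to -0.23). In the authors' deposited table Mief1 was 0.33 higher in proliferating than in quiescent cells on the log2 scale (adjusted p = 0.0139).

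In KO libraries Mief1 had 42.9, 48.7 and 42.9 CPM, and in control libraries 51.7, 50.9 and 53.0 CPM. The KO counts all lay below the control counts (log2 fold change -0.21, SE 0.07, edgeR adjusted p = 0.0239), but the direction turned to 0.01 in limma on log2(TPM + 1) (adjusted p = 0.965) and 0.03 in counts scaled from TPM (adjusted p = 0.893), and the authors' deposited table holds 0.01 (adjusted p = 0.948). DESeq2 did not call it (-0.21, adjusted p = 0.0772), nor did edgeR without GFP control replicate 1 (adjusted p = 0.0602), GFP control replicate 3 (0.0812) or KO replicate 1 (0.0872). A short transcript was again singled out after its values were seen, and its part in the difference between counts and TPM was not tested. Mief1-207, a processed transcript of 419 bases, took 31.1% and 21.8% of the gene's TPM in KO replicates 1 and 2, and 0 in KO replicate 3 and in the control libraries. Those shares rested on 9.49 and 6.44 estimated counts, or 2.35% and 1.42% of the gene's counts. With this transcript left out, Mief1 had 17.0, 18.5 and 17.7 TPM in KO and 22.8, 22.1 and 20.2 TPM in control libraries. Leaving out a transcript that was above 0 in KO libraries alone can only lower the KO values. That the KO values then all lay below the control values is therefore no test of the fall.

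Mief2 (ENSMUSG00000018599, GRCm39 chromosome 11, 60619224 to 60623777, plus strand) encodes the related adaptor. It had 44.8, 29.5, 34.3 and 35.7 CPM in quiescent and 37.1, 34.2, 34.8 and 36.2 CPM in proliferating libraries. The quiescent libraries spread on both sides of the proliferating ones (log2 fold change 0.01, 95% interval -0.21 to 0.23, edgeR adjusted p = 0.915), and without quiescent replicate 2 the value was 0.19 (adjusted p = 0.0763). In KO libraries it had 20.0, 17.6 and 19.1 CPM and in control libraries 12.6, 15.4 and 16.7 CPM, with no overlap. This rise was 1.27-fold (log2 fold change 0.34, SE 0.12, edgeR adjusted p = 0.0255), and the authors' deposited table holds 0.48 (adjusted p = 0.0131). The call was lost under 7 of 17 alternatives, among them DESeq2 (0.34, adjusted p = 0.0641), removal of the GC trend (0.23, adjusted p = 0.114) and the fits without GFP control replicate 1 (0.23, adjusted p = 0.132), GFP control replicate 2 (0.36, adjusted p = 0.0513) or KO replicate 1 (0.29, adjusted p = 0.0912).

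Mief1 made up 45.8 ± 7.60% of the TPM of both adaptors in quiescent and 52.3 ± 1.57% in proliferating cells (SD, n = 4 and 4; exact two-sided permutation p = 0.171, adjusted 0.343 over the 4 shares tested). The difference of -6.54 percentage points was -9.94 without quiescent replicate 2 and -4.06 without quiescent replicate 1. It made up 52.2 ± 6.38% in KO and 61.9 ± 4.78% in control cells (SD, n = 3 and 3; exact permutation p = 0.1, adjusted 0.343). The KO libraries (45.8% to 58.6%) all lay below the control libraries (58.7% to 67.4%), and 0.1 is the smallest p that 3 against 3 allows, so this share could not be called either.

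Immt (ENSMUSG00000052337, GRCm39 chromosome 6, 71808315 to 71854372, plus strand) encodes the central MICOS subunit. Its level was 84.2, 98.0, 92.9 and 86.7 CPM in quiescent and 104, 95.1, 96.1 and 106 CPM in proliferating libraries. The groups overlapped, with quiescent replicate 2 above the 2 lowest proliferating libraries. The fall was 1.11-fold (log2 fold change -0.15, SE 0.06, edgeR adjusted p = 0.0453). It was lost under 13 of 19 alternatives, among them RLE size factors (-0.10, adjusted p = 0.191), DESeq2 (-0.10, adjusted p = 0.238) and the fits without proliferating replicate 1 (-0.13), proliferating replicate 5 (-0.12) or any of the 4 quiescent libraries (-0.11 to -0.06).

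KO libraries had 195, 205 and 184 CPM of Immt and control libraries 214, 216 and 219 CPM. These did not overlap, and the difference was again 1.11-fold (log2 fold change -0.15, SE 0.05, edgeR adjusted p = 0.0214). The call was lost under 9 of 17 alternatives, with adjusted p up to 0.0901, while the log2 fold change stayed between -0.19 and -0.11. Those 9 included the fits without GFP control replicate 1, 2 or 3 and without KO replicate 1.

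Chchd3 (ENSMUSG00000053768, GRCm39 chromosome 6, 32767911 to 33037195, minus strand) encodes the MICOS subunit that bridges IMMT to the outer membrane machinery. It had 66.6, 62.6, 68.2 and 67.3 CPM in quiescent and 66.3, 70.3, 70.7 and 73.1 CPM in proliferating libraries. The groups overlapped and the difference was not called (log2 fold change -0.09, 95% interval -0.21 to 0.04, edgeR adjusted p = 0.21), though scaling by library size alone gave -0.22 (adjusted p = 0.00177). Its sign turned without quiescent replicate 2 (0.03, edgeR adjusted p = 0.718). KO libraries had 101, 107 and 87.5 CPM, all below the 112, 108 and 116 CPM of the control libraries. This fall of 1.14-fold (log2 fold change -0.19, SE 0.07, edgeR adjusted p = 0.0317) was lost under 9 of 17 alternatives, among them the fits without GFP control replicate 1 (-0.19) or 3 (-0.16) and without KO replicate 1 (-0.21) or 3 (-0.11). In the authors' deposited table of KO over control cells Immt stood at -0.16 (adjusted p = 0.0667) and Chchd3 at -0.18 (adjusted p = 0.11).

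**Figure D3:**
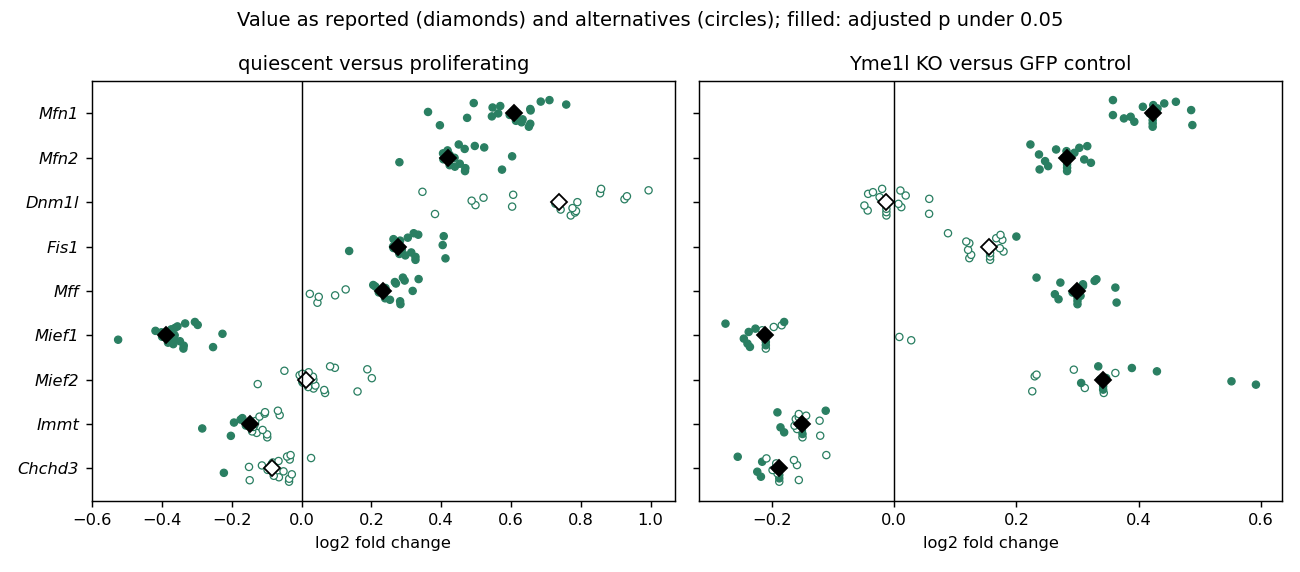
Log2 fold change (horizontal axis) of each tested gene as reported (diamonds) and under the alternative settings (circles, 19 for quiescent against proliferating and 17 for Yme1l KO against GFP control), filled where the adjusted p was under 0.05. The circles of Mfn1 and Mfn2 are filled in both panels, those of Mff in the KO panel and those of Fis1 and Mief1 in the quiescent panel, while the KO circles of Mief1 include 2 just above 0 and those of Immt and Chchd3 are partly open.

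Gdap1 (ENSMUSG00000025777, GRCm39 chromosome 1, 17215586 to 17234495, plus strand) encodes an outer membrane protein known from inherited neuropathy and found mainly in neurons. It was near the limit of detection. Quiescent libraries had 6, 3, 0 and 2 counts and proliferating libraries 5, 2, 3 and 0, which sum to 11 and 10. KO libraries had 11, 11 and 8 counts and control libraries 8, 7 and 9, or 0.905 to 1.18 CPM and 0.75 to 0.862 CPM. The KO values lay above the control values, but the gene did not pass the filter and no test is given.

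The order of the genes within a group can be read from TPM, which corrects for length. In proliferating cells Fis1 was highest at 399.6 ± 7.93 TPM (SD, n = 4). Mff (105), Chchd3 (85.5), Immt (72.6) and Mfn2 (65.1 TPM) followed, each separated from the next in all libraries. Mief1 (33.9) and Mief2 (30.7 TPM) overlapped, and Mfn1 (13.2), Dnm1l (2.42) and Gdap1 (0.238 TPM) came last. In GFP control cells Fis1 (186) and Mff (177 TPM) overlapped, Immt (166) and Chchd3 (147 TPM) came next, Dnm1l (83.1) and Mfn1 (82.7 TPM) overlapped, and Mfn2 (44.2), Mief1 (21.7), Mief2 (13.4) and Gdap1 (0.395 TPM) followed.

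**Figure D4:**
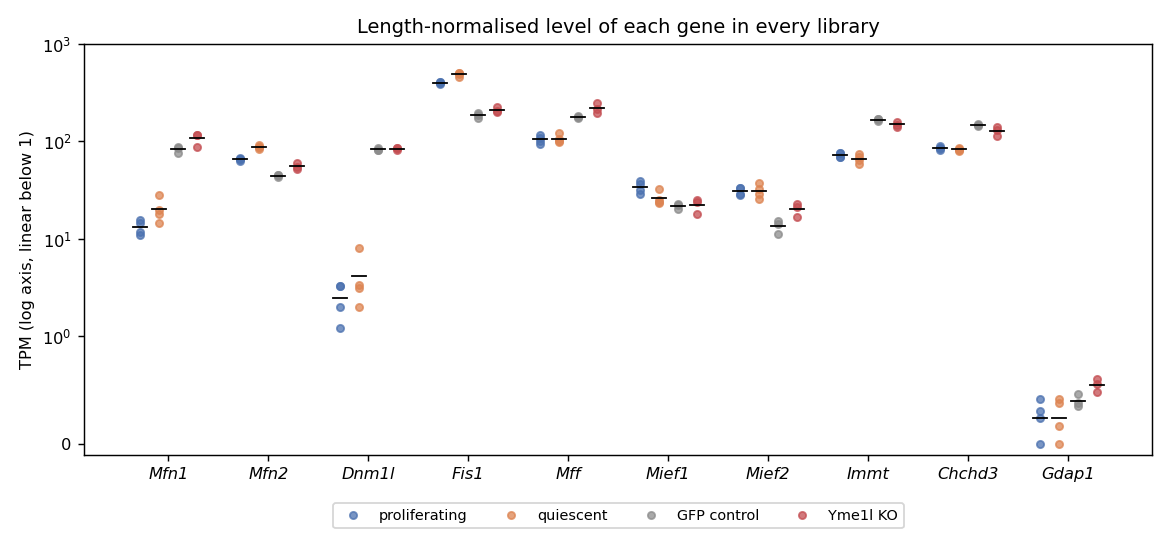
TPM (vertical axis, log scale above 1 and linear below) of the 10 genes in every library of the 4 groups, with lines at group means. Dnm1l stands at 2.42 TPM in proliferating and 83.1 TPM in GFP control cells, Dnm1l also spreads from 1.22 to 8.0 TPM among the quiescent and proliferating libraries, and Gdap1 stays below 1 TPM throughout.

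Proliferating and GFP control cells were both kept in FGF and EGF, yet the levels of these genes in the separately quantified tables were far apart. The mean TPM of Dnm1l was 34.3-fold higher in the GFP control libraries, that of Mfn1 6.28-fold and that of Immt 2.29-fold, while Fis1, Mief2, Mief1 and Mfn2 were higher in the proliferating libraries. The genes higher in the GFP control libraries had transcripts of lower GC content, from 40.7% for Dnm1l to 47.4% for Immt, and those higher in the proliferating libraries ran from 53.7% for Mief1 to 60.5% for Mief2. Across the 9 genes the GC content and the log2 ratio of proliferating to GFP control TPM had a Pearson r of 0.884, and across 11464 genes 0.698, a description across genes, which are not replicates. These libraries also differ in virus and in the table they were quantified in, which cannot be told apart, and no test was made across the tables.

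**Figure D5:**
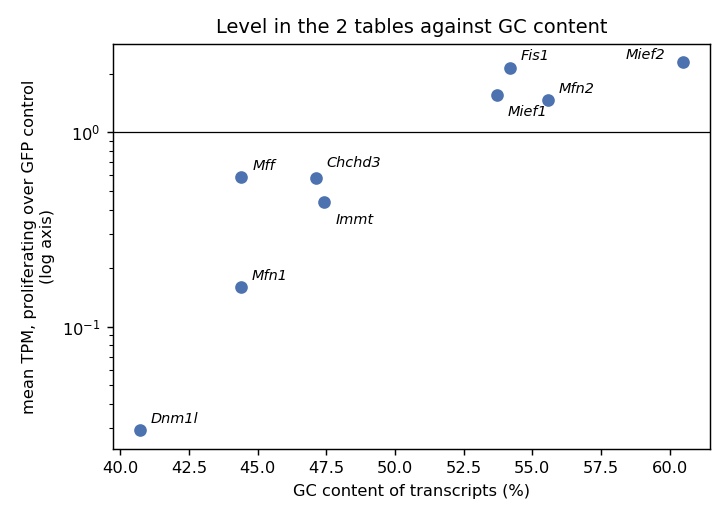
Mean TPM in proliferating cells over mean TPM in GFP control cells (vertical axis, log scale) against the GC content of each gene's transcripts (horizontal axis, %) for the 9 genes without Gdap1. Dnm1l, at 40.7% GC, lies lowest, and the 4 genes above 53% GC lie above the line at equal levels.

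Transcript shares were tested for 34 transcripts, 16 in the quiescent and 18 in the KO comparison, in 7 of the 10 genes. These were transcripts with a mean share of at least 10% over both groups. The smallest exact permutation p is 0.0286 for 4 against 4 libraries and 0.1 for 3 against 3, so no adjusted p could go below 0.0607 and no share could be called. The shares are therefore given as values. Mff-210 (mean share 9.47% in the quiescent comparison) and Mief1-207 (8.82% in the KO comparison) fell short of the minimum and were not tested. Dnm1l-201, a protein-coding transcript, made up 86.1 ± 24.5% of the gene's TPM in quiescent and 43.2 ± 21.7% in proliferating libraries (SD, n = 4 and 4, exact permutation p = 0.0571, adjusted 0.648), on the 25 to 135 counts given above. This was the largest difference among the 34 shares. For Mfn1, transcript Mfn1-202 carried 63.7 ± 10.1% in quiescent and 64.5 ± 3.68% in proliferating cells.

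Other genes of the same processes were counted in the same fits. Of 22 further genes of fusion and fission, 21 were tested in quiescent cells. There 7 were higher and 6 lower, beside 29.9% and 35.5% of all genes, with a median log2 fold change of 0.16. The largest changes were falls of Mtfr2 (-1.88, SE 0.30), a fission regulator, and Mtfp1 (-1.17, SE 0.25), an inner membrane fission protein, and a rise of Spire1 (1.62, SE 0.09), an actin nucleator with a mitochondrial isoform. Both falls were at low levels, with means in quiescent and proliferating cells of 1.63 and 6.07 CPM for Mtfr2 and 2.53 and 5.74 CPM for Mtfp1. In KO cells 7 of these 21 were higher and 4 lower (median 0.14), beside 25.4% and 26.2% of all genes. Mtfr2 (-1.08, SE 0.21) and Mtfr1 (-0.65, SE 0.10) were lower and Gdap1l1 (0.96, SE 0.24), the paralog of Gdap1, was higher. Means in KO and control cells were low for Mtfr2 (3.66 and 7.76 CPM) and Gdap1l1 (5.76 and 2.97 CPM).

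Of the other MICOS and cristae genes 14 were tested. In quiescent cells 2 were higher and 7 lower (median -0.11), beside 29.9% and 35.5% of all genes, with falls of the prohibitin Phb2 (-0.86, SE 0.05), of Samm50 (-0.53, SE 0.05), which inserts outer membrane proteins and binds MICOS, and of its partner Dnajc11 (-0.48, SE 0.06). In KO cells 1 was higher, 5 were lower and 8 were not called (median -0.14), beside 25.4% and 26.2% of all genes. Ghitm, an inner membrane protein, was 0.51 higher (SE 0.06), and the MICOS subunit Chchd6 (-0.43, SE 0.15) and Phb2 (-0.37, SE 0.05) were lower. The symbol Phb1 was not matched.

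Of 8 genes of mitochondrial transport, 3 were higher and 2 lower in quiescent cells (median 0.32), beside 29.9% and 35.5% of all genes. Snph, which anchors axonal mitochondria, was lower (-1.18, SE 0.09), and the motor gene Kif1b (0.86, SE 0.19) and Armcx3 (0.63, SE 0.11) were higher. In KO cells 4 were higher and 1 lower (median 0.07), beside 25.4% and 26.2% of all genes. Armcx3 (0.20, SE 0.07) and the motor adaptor Trak1 (0.17, SE 0.05) were higher and the kinesin heavy chain gene Kif5b (-0.16, SE 0.06) was lower. Among 10 reference genes of mitochondrial mass and import, 1 was higher and 6 lower in quiescent cells (median -0.32), beside 29.9% and 35.5% of all genes. In KO cells 1 of these reference genes was higher and 5 were lower (median -0.14), beside 25.4% and 26.2% of all genes. The import channel gene Tomm40 (-0.68, SE 0.05) and Tfam (-0.64, SE 0.13), which packages mitochondrial DNA, fell in quiescent cells, as did the import receptor gene Tomm22 (-0.37, SE 0.05). Tomm40 (-0.54, SE 0.06) and Tfam (-0.36, SE 0.08) also fell in KO cells, where the matrix chaperonin gene Hspd1 fell by 0.76 on the log2 scale (SE 0.07). The median of these reference genes lay below 0 in both comparisons, in which both mitofusin genes rose, and the difference between them was not tested.

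For the genes called in both comparisons, near genes in pattern were found from log2 CPM centred within each table, over 14 libraries and 11477 genes. Norad (root mean square difference 0.0857) and D5Ertd579e (0.0885) lay nearest to Mfn1, and Tulp3 (0.0485) nearest to Mfn2. Fbxl5 (0.0582) and Ankrd40 (0.0604) were nearest to Mff, Gsk3a (0.0536) to Mief1, and Grsf1 (0.0475) to Immt.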

How the data were processed

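Poly-A RNA of 14 libraries in 4 groups was analysed from the files the authors deposited, separately for each pair of groups. The authors deposited salmon estimated counts per gene and per transcript, counts scaled from TPM, and TPM values, per the file headers and names, on build GRCm39 per the submitters' processing notes. The authors deposited test tables with log2 fold changes and adjusted p-values, made with DESeq2 1.30.1 in R 4.0.3 per the submitters' processing notes. The direction of those contrasts was read from the signs of genes against their counts. Reads were paired-end and reverse-stranded, per the deposited design sheet, which also tied column names to samples.

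Estimated counts were rounded and tested in edgeR 4.0.16 (R 4.3.3) by its robust quasi-likelihood test over all genes, after TMM scaling and the filterByExpr filter, and genes were called where the Benjamini-Hochberg adjusted p was under 0.05. Intervals are 95% and come from that fit. Shares of TPM were tested by exact permutation over samples. The test was checked on simulated counts. Alternatives used DESeq2 1.42.0, limma 3.58.1 on log2(TPM + 1), other scalings and filters, a replicate block and leaving out each library, and removal of each library's GC trend was added after seeing the data. GC content and the names, types and lengths of transcripts came from GENCODE M21 by ID, and GC content covered 99.9% of tested genes. The genes and lists were chosen with earlier results of these data known. All 10 genes are described, and of each list up to 3 called genes with the largest change are named. Up to 2 nearest genes, those with the smallest root mean square difference, are named, and some genes are not reported here. The labels name no molecular identifiers, so counts may not all be independent molecules.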

Additional observations from a re-analysis of the deposited data

How the results depend on the processing

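The numbers of these genes called higher, 4 in each comparison, stayed at 3 or 4 under every alternative run. The genes behind the number could change. Without KO replicate 1, Fis1 was called in KO cells (edgeR adjusted p = 0.0437) and Mief2 was not (edgeR adjusted p = 0.0912). The 2 called lower in quiescent cells became 1, with Immt lost, under RLE size factors, DESeq2, limma on log2(TPM + 1), counts scaled from TPM, a filter of at least 1 CPM, all 14 libraries in one fit, the replicate block and an adjusted p under 0.01, and ranged from 1 to 2 when single libraries were left out. They became 3 with library size alone, which added Chchd3. The 3 called lower in KO cells became 0 under DESeq2, limma on TPM, counts scaled from TPM and an adjusted p under 0.01, became 1 with the GC trend removed with or without the replicate block, and ranged from 0 to 3 when single libraries were left out. The 28 further listed genes called in KO cells became 18 at an adjusted p under 0.01, a stricter threshold by construction. Mief1 in KO cells turned to 0.00852 (limma on TPM) and 0.0279 (counts scaled from TPM), and Trak1 in quiescent cells turned to -0.128 with library size alone, which also moved the median of all genes to -0.151. Same-numbered libraries had correlations of deviations from -0.33 to 0.000377, so no pairing by replicate number was seen. With so few libraries per group this cannot exclude pairing, and the labels do not state it. With the replicate block, 4 genes were higher in quiescent cells and 4 higher and 3 lower in KO cells, and the difference in Mfn1 share over same-numbered libraries was 0.997 percentage points in quiescent and 0.649 in KO cells, and that in Mief1 share -6.18 and -9.72. Dnm1l in the quiescent pair is limited by the spread between libraries (SE 0.45), and Gdap1 by its counts.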
